A study of Arabidopsis thaliana with 12 samples.

Results

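The genotype difference of imbibed Arabidopsis thaliana seeds whose last light was far-red was measured by setting 3 arrays of pil5 seeds against 3 arrays of Col-0 wild-type seeds, 6 of the 12 arrays of the study. The arrays were taken by their titles, and the description covers all 22746 probe sets that remained after 64 Affymetrix control probe sets were set aside. The pil5 seeds carried the line named Salk_072677 in the labels, and Col-0 was the wild type. Seeds of both genotypes received far-red light (3.2 μmol per square metre and second) for 5 min and then stayed in the dark for 12 h on aqueous medium. These groups are called pil5 dark and Col-0 dark. In the other 6 arrays, called pil5 red and Col-0 red, a red pulse (13 μmol per square metre and second, 5 min) followed the far-red pulse before the same 12 h of darkness. The labels give 3 biological replicates per group, numbered 1 to 3, and name 1 pil5 line, so genotype and line cannot be told apart.

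PIL5, also called PIF1, is a basic helix-loop-helix transcription factor that binds active phytochrome. Phytochrome is a red and far-red light receptor: red light converts it to its active form, which leads to the breakdown of PIL5, and far-red light converts it back. In imbibed seeds PIL5 is known as a repressor of germination that lowers gibberellin signalling and raises abscisic acid (ABA) signalling. Gibberellin promotes germination, and ABA maintains dormancy and the late embryo programme.

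The transcript of PIL5 itself (AT2G20180) could not be read, since 0 probe sets of the annotation carry its gene identifier. The genotype labels were therefore not checked by the mutated gene. Within each group the dark arrays correlated at r between 0.982 and 0.997 across probe sets, with array 3 the least like the others of its group. The arrays of number 3 also had a lower median over 69 plastid-encoded probe sets, at 7.36 in pil5 dark 3 and 7.33 in Col-0 dark 3, against 8.59 to 9.29 in the other 4 dark arrays. A control probe set for 25S ribosomal RNA read 12.90 in Col-0 dark 2 and 5.65 to 8.11 in the other 5 dark arrays. The control probe set for the middle of GAPDH read 13.30 to 13.50 in pil5 dark and 12.71 to 12.85 in Col-0 dark (two-sided exact permutation p = 0.1, the smallest p that 3 against 3 arrays can give). After red, pil5 red 3 stood apart, with a bioC spike-in control of 7.45 against 8.77 to 9.21 in the other 11 arrays and a median over 23 mitochondrial-encoded probe sets of 9.91 against 6.74 to 8.08. Of the markers that define seed tissue, 1 of 14 seed identity genes was measured (PAP85), 1 of 5 seed coat genes (BAN) and 0 of 5 endosperm genes. PAP85 was among the brightest transcripts, while BAN was dim, at 4.37 to 4.96 in pil5 dark and 4.26 to 4.61 in Col-0 dark. The 1 measured root marker (PYK10) read 5.99 to 9.01 in pil5 dark and 7.14 to 8.69 in Col-0 dark, and the 1 pollen marker (AGL18) read 7.62 to 8.47 in pil5 dark and 7.53 to 7.92 in Col-0 dark. Neither passed the test.

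In the dark, 2750 probe sets differed between pil5 and Col-0 (limma, Benjamini-Hochberg adjusted p of at most 0.05), which is 12.1% of those tested. Of these, 1384 were higher in pil5 (6.08% of all probe sets) and 1366 were lower (6.01%). The lower probe sets had the larger differences. Among the 705 called probe sets with at least a 2-fold difference, 286 were higher and 419 lower, and of the 99 with at least a 4-fold difference, 38 were higher and 61 lower. The median log2 difference was 0.67 for the higher and -0.76 for the lower probe sets, and 914 called probe sets differed by less than 1.5-fold. The groups did not overlap in 2744 of the called probe sets, where 29.5% of all probe sets showed no overlap. Calls were rare among dim probe sets: of 4 equal classes by mean level, 0.246% were called in the lowest, 6.05% in the second, 19% in the third and 23% in the highest. Probe sets of annotated pseudogenes were called at 0.809% (8 of 989), and those of protein-coding genes at 12.3% (1536 of 12443). The 5 chromosomes differed little, with 10.8% to 12.5% of their probe sets called.

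With the replicate number as a block, 5406 probe sets were called (23.8%), 2637 higher and 2769 lower, and all 2750 were among them. The difference had 1 sign in all 3 numbers for each of the 2750, where 53.7% of all probe sets had. At least a 2-fold difference in the called direction in each of the 3 numbers was found for 427 probe sets, 149 higher and 278 lower. The count of calls depended on single arrays: leaving out Col-0 dark 2 gave 769, leaving out Col-0 dark 1 gave 982, leaving out pil5 dark 3 gave 1355 and leaving out pil5 dark 2 gave 1731. With the block these omissions gave 3037, 2935, 3424 and 3618, in the same order. In the fit without the block, 721 of the 2750 stayed past the threshold whichever 1 of the 12 arrays was left out, 402 higher and 319 lower.

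**Figure D1:**
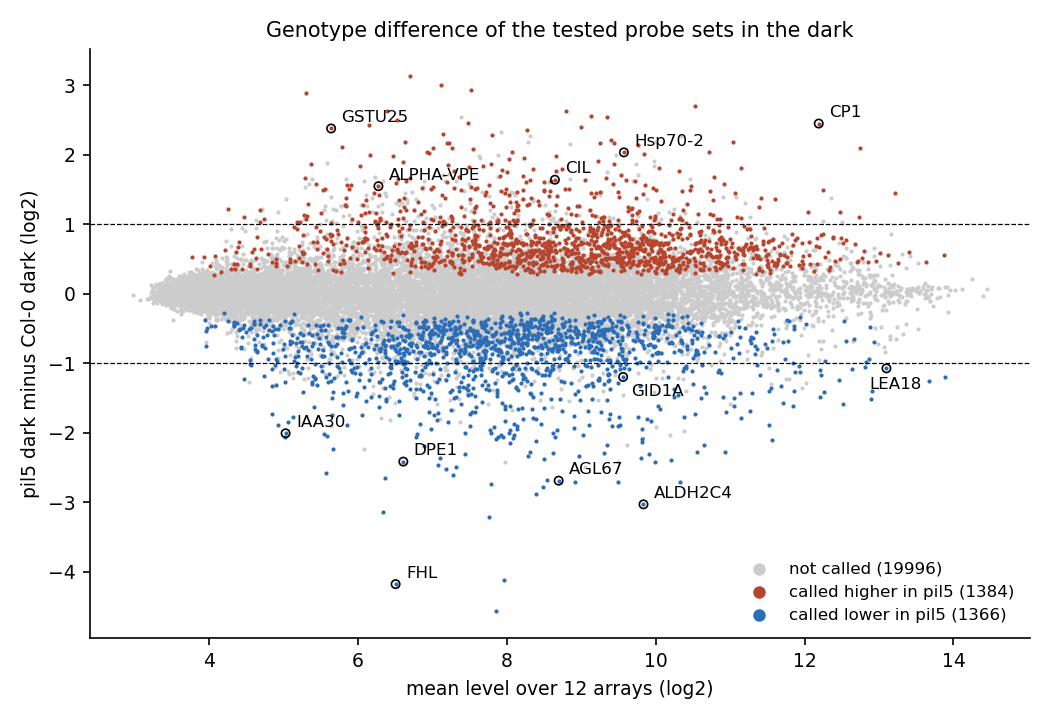
Difference between pil5 dark and Col-0 dark (log2, vertical) against the mean level over 12 arrays (log2, horizontal), 1 point per probe set, with dashed lines at a 2-fold difference. The 1384 higher probe sets (red) and 1366 lower ones (blue) lie mostly at middle and high levels, and the lower ones reach further from 0, down to FHL and beyond.

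Transcripts of light and hormone signalling were among those that fell most in pil5. FHL (AT5G02200), which carries phytochrome A into the nucleus, read 6.13, 6.0 and 5.33 in pil5 dark 1 to 3, against 10.03, 9.88 and 10.10 in Col-0 dark 1 to 3. All 3 pil5 arrays lay far below the Col-0 arrays, and the level was 18.1-fold lower in pil5 (log2 difference -4.18, SE 0.18, adjusted p = 2.9e-06). FHL is 1 of 4 measured genes of the phytochrome list. The other members did not pass: the bZIP factor HYH had a log2 difference of 0.86 (adjusted p = 0.32, and 0.012 with the replicate block), the bHLH factor SPT (SPATULA) 0.41 (adjusted p = 0.46) and the bHLH factor ALC (ALCATRAZ) -0.20 (adjusted p = 0.54).

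Of 5 measured genes of gibberellin perception, 2 fell and 0 rose, where 5.94% of all 13350 genes with a probe set were lower and 5.62% higher. Both are receptors. GID1A (AT3G05120) read 9.28, 9.64 and 9.23 in pil5 dark, against 10.47, 10.86 and 10.41 in Col-0 dark (log2 difference -1.20, SE 0.16, adjusted p = 0.0029). GID1C (AT5G27320) read 5.86, 6.07 and 5.75 in pil5 dark, against 6.84, 7.11 and 6.95 in Col-0 dark (-1.07, SE 0.14, adjusted p = 0.0023). In both genes the arrays of number 2 were the highest of their group and the groups did not overlap. The third receptor, GID1B, read 4.43 to 5.18 in pil5 dark and 4.42 to 4.87 in Col-0 dark, a low level at which the groups overlapped. The F-box gene SLY1, whose product marks DELLA repressors for breakdown, had a log2 difference of -0.25 (SE 0.23, adjusted p = 0.59, and 0.030 with the replicate block). Its relative SLY2 had 0.13 (adjusted p = 0.70). None of the 13 listed gibberellin synthesis genes and 7 gibberellin 2-oxidases was tied to a probe set of its own by the annotation used here.

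Of 41 genes on the ABA signalling list 2 were measured, and both fell, where 5.94% of all genes fell. XERICO (AT2G04240), a RING-finger protein whose overexpression raises ABA, read 8.85, 9.16 and 9.09 in pil5 dark, against 10.76, 11.15 and 10.91 in Col-0 dark (-1.90, SE 0.38, adjusted p = 0.012). EEL (AT2G41070), a bZIP factor of the ABA response in embryos, read 6.57, 6.35 and 5.51 in pil5 dark, against 8.85, 8.72 and 7.98 in Col-0 dark (-2.37, SE 0.50, adjusted p = 0.014). The third EEL array was the lowest in both groups, and the difference was of like size in each number (-2.27, -2.37 and -2.48). No listed gene of ABA synthesis or of ABA 8'-hydroxylation was tied to a probe set of its own by that annotation, so these genes were not analysed here. FHL, GID1A and GID1C passed without any 1 array, whereas XERICO missed the threshold without Col-0 dark 2, and EEL without Col-0 dark 1 or 2 or without pil5 dark 3 (adjusted p up to 0.065).

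**Figure D2:**
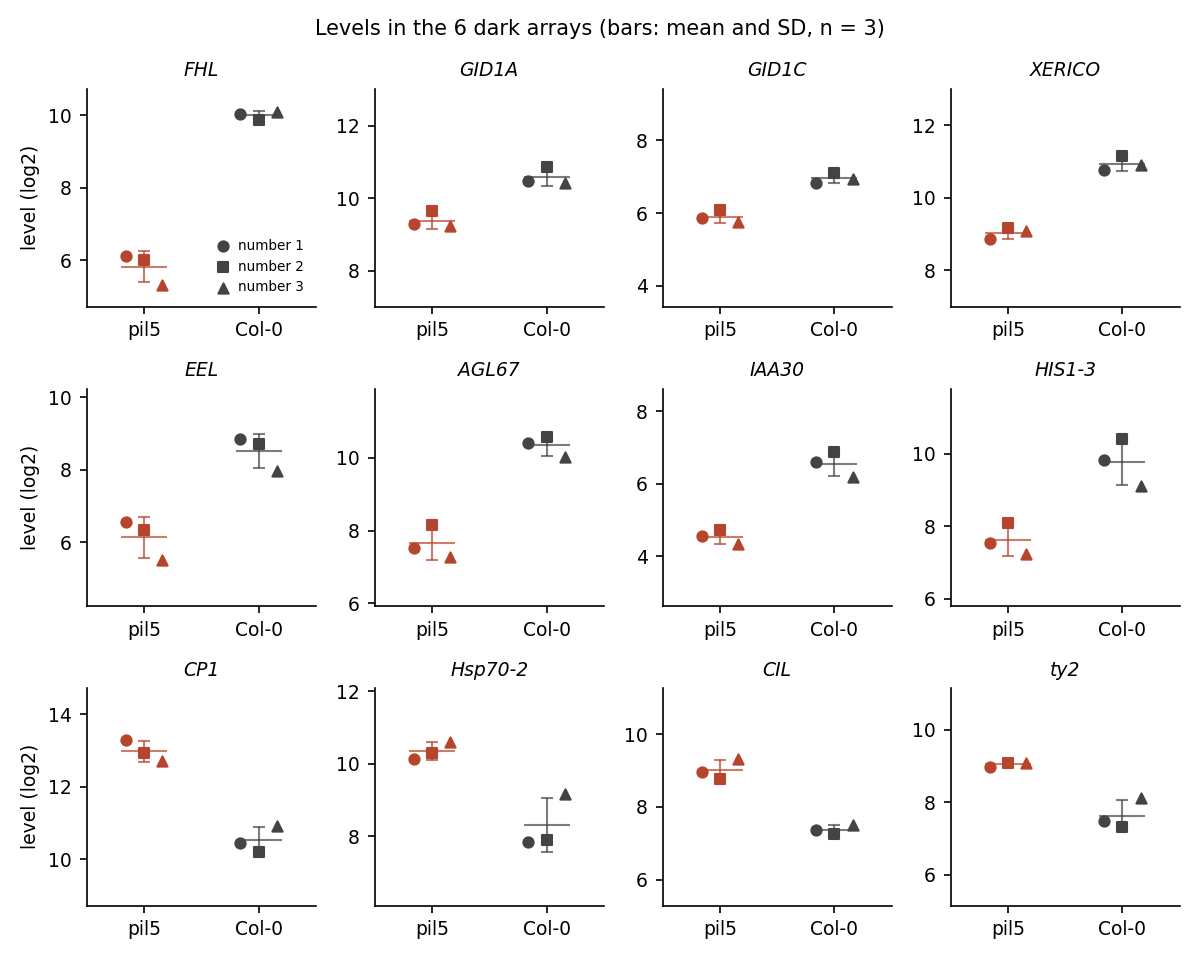
Levels (log2) of 12 genes in the 6 dark arrays, with pil5 on the left and Col-0 on the right of each panel. Marker shapes give the replicate number, horizontal bars the mean and vertical bars the SD (n = 3). The 8 genes of the upper rows are lower in all pil5 arrays than in any Col-0 array, and CP1, Hsp70-2, CIL and ty2 are higher.

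Of 29 listed regulators of the embryo programme and of germination 5 were measured, and 4 of these fell. Their median was -2.01, against 0.01 over all genes. As the list was chosen with earlier results of these data known, these values describe its members only. The MADS-box gene AGL67 (AT1G77950) read 7.53, 8.16 and 7.27 in pil5 dark, against 10.42, 10.59 and 10.02 in Col-0 dark, 6.46-fold lower in pil5 (-2.69, SE 0.50, adjusted p = 0.0088). IAA30 (AT3G62100), an Aux/IAA repressor of auxin response, read 4.56, 4.72 and 4.34 in pil5 dark, against 6.59, 6.88 and 6.18 in Col-0 dark (-2.01, SE 0.18, adjusted p = 0.00049). Its pil5 values lay near those after red in both genotypes (4.33 to 4.84). HIS1-3 (AT2G18050), a linker histone variant induced by drought and ABA, read 7.55, 8.10 and 7.23 in pil5 dark, against 9.82, 10.40 and 9.13 in Col-0 dark (-2.16, SE 0.41, adjusted p = 0.0095). EIN3, the ethylene response factor, fell by 0.51 (SE 0.12, adjusted p = 0.024). The fifth member is SPT, given above. AGL67, IAA30 and HIS1-3 passed without any 1 array, and EIN3 missed the threshold when Col-0 dark 1 or 2 or pil5 dark 1 or 3 was left out (adjusted p up to 0.103). AGL67 was the only 1 of 40 measured MADS-box genes to fall, where 5.94% of all genes fell. The 3 others that passed rose, by 0.26 to 0.60, where 5.62% of all genes rose. Leaving out Col-0 dark 1 or 1 of pil5 dark 2 and 3 left 1 of these 4 calls, and leaving out another dark array left 2.

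Late embryogenesis abundant (LEA) and dehydrin genes, which protect dry and water-stressed cells, had mostly negative differences: 18 of 19 measured members lay below 0, with a median of -0.70 against 0.01 over all genes. Of the 19, 6 fell and 0 rose, where 5.94% of all genes fell and 5.62% rose. With the replicate block 8 fell, where 11.8% of all genes did. The gene with the symbol LEA (AT2G21490) read 11.95, 11.93 and 11.31 in pil5 dark, against 13.27, 13.46 and 12.92 in Col-0 dark (-1.49, SE 0.35, adjusted p = 0.021). LEA18 (AT2G35300), among the brightest transcripts of these seeds, read 13.00, 12.98 and 12.11 in pil5 dark, against 13.88, 13.88 and 13.55 in Col-0 dark (-1.07, SE 0.28, adjusted p = 0.030). On this list AT2G42560 had the largest difference, -2.18 (SE 0.41, adjusted p = 0.0098). The loci AT3G17520 (-1.17), AT4G21020 (-1.09) and AT5G44310 (-0.72) also fell. Among members that did not pass, AtLEA4-1 had -0.65 (adjusted p = 0.10, and 0.052 with the block), M10 had -0.65 (adjusted p = 0.15, and 0.017 with the block) and the dehydrin LTI30 had -0.87 (adjusted p = 0.60, and 0.031 with the block). LTI30 read 9.66, 10.64 and 11.48 in pil5 dark, against 10.54, 11.38 and 12.45 in Col-0 dark, so that each pair of numbers differed by less than the arrays of 1 group. COR47, the 1 member with a positive difference, had 0.42 (adjusted p = 0.78).

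Of 27 listed genes of stored reserves 2 were measured, and both fell as well, where 5.94% of all genes fell. PAP85 (AT3G22640), a vicilin-like storage protein, read 12.20, 12.68 and 12.48 in pil5 dark, against 13.72, 13.71 and 13.11 in Col-0 dark (-1.06, SE 0.31, adjusted p = 0.047). The oil body protein gene OLEO3 fell by 0.83 (SE 0.21, adjusted p = 0.032). PAP85 is also the 1 measured marker of seed identity. In whole seeds, fewer cells with such transcripts and less RNA per cell cannot be told apart. Only AT2G42560 passed without any 1 array. The other 5 LEA genes, PAP85 and OLEO3 each missed the threshold without Col-0 dark 1 and without Col-0 dark 2, and some also without 1 of the other arrays except pil5 red 1 and pil5 red 3 (adjusted p up to 0.181). The LEA count was 1 when Col-0 dark 1 or 2 was left out and 2 when pil5 dark 3 was. That of the reserve genes was 0 without any of these 3 arrays and 1 without pil5 dark 1 or pil5 dark 2.

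Enzymes that break down amino acids formed another group with lower levels, listed after the values were seen. All 9 measured genes of branched-chain amino acid and methionine catabolism had a negative difference, 5 fell (8 with the replicate block) and the median was -0.79. Over all genes 5.94% fell (11.8% with the block) and the median was 0.01. MGL (AT1G64660), methionine gamma-lyase, read 8.37, 8.98 and 7.75 in pil5 dark, against 10.36, 10.67 and 10.16 in Col-0 dark (-2.03, SE 0.28, adjusted p = 0.0036). MCCA, the subunit of 3-methylcrotonyl-CoA carboxylase in leucine breakdown, fell by 1.38 (SE 0.26, adjusted p = 0.0098). IVD, isovaleryl-CoA dehydrogenase of the same pathway, fell by 0.48 (SE 0.10, adjusted p = 0.012). The electron carriers that serve these dehydrogenases fell too, ETFBETA by 0.97 (SE 0.14) and ETFQO by 0.79 (SE 0.11). ETFALPHA (-0.86), D2HGDH (-0.78) and ALDH6B2 (-0.65) passed only with the block, and MCCB (-0.47) passed neither fit. MCCA missed the threshold without Col-0 dark 2 and IVD without Col-0 dark 1 or Col-0 dark 2 (adjusted p up to 0.051), while MGL, ETFBETA and ETFQO passed without any 1 array. The count was 3 without Col-0 dark 2.

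The aldehyde dehydrogenases, a list drawn up by family name, had negative differences in 8 of 8 measured cases, with a median of -0.65, and 2 passed. The family was chosen with earlier results of these data known, so these values describe its members only. Over all genes 5.94% fell, and 11.8% with the block. ALDH2C4 (AT3G24503), which oxidises coniferaldehyde and sinapaldehyde, had the second largest fall among genes with a symbol. It read 9.28, 9.15 and 8.71 in pil5 dark, against 12.07, 11.97 and 12.20 in Col-0 dark, 8.18-fold lower in pil5 (-3.03, SE 0.13, adjusted p = 2.9e-06). The pil5 values lay within or just below the range after red in both genotypes, 9.02 to 9.29. ALDH10A9, an aminoaldehyde dehydrogenase, fell by 0.59 (SE 0.10, adjusted p = 0.0059). With the replicate block the number of members lower was 7 in place of 2, as ALDH10A8 (-1.03), ALDH22A1 (-0.69), ALDH6B2 (-0.65), ALDH11A3 (-0.65) and ALDH7B4 (-0.59) then passed. ALDH3F1 (-0.21) did not. ALDH2C4 and ALDH10A9 passed without any 1 array.

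Genes of carbon and sulfur metabolism and of autophagy were also among those that fell. DPE1 (AT5G64860), the plastid disproportionating enzyme that handles maltotriose in starch breakdown, read 6.59, 5.89 and 5.01 in pil5 dark, against 8.65, 8.21 and 7.89 in Col-0 dark (-2.42, SE 0.42, adjusted p = 0.0074). The beta-glucosidases BGLU44 (-2.31, SE 0.45) and BGLU19 (-1.77, SE 0.50) fell, while the other 19 of 21 measured beta-glucosidases passed in neither direction. Over all genes 5.94% fell and 5.62% rose. BGLU44 read 9.81, 9.57 and 8.21 in pil5 dark, against 11.84, 11.75 and 10.93 in Col-0 dark, with the arrays of number 3 the lowest in both groups. HPR, the hydroxypyruvate reductase of photorespiration, fell by 1.56 (SE 0.32, adjusted p = 0.014). On lists made after the values were seen, 3 of 4 sulfur assimilation genes fell: SIR, sulfite reductase, by 0.63, CBL, cystathionine beta-lyase of methionine synthesis, by 0.63, and SIRB, which completes the sirohaem group of sulfite reductase, by 0.57. Of 4 subunit genes of ATP citrate lyase, the source of cytosolic acetyl-CoA, ACLA-1 (-1.0, SE 0.29) and ACLA-2 (-0.73, SE 0.17) fell, and 3 fell with the block. Of 10 autophagy genes, 3 fell, all encoding ATG8 proteins, which coat the forming vesicle: ATG8F by 0.96 (SE 0.17), APG8H by 0.63 (SE 0.13) and ATG8C by 0.54 (SE 0.13). The list median was 0.04, and 6 of the 10 differences were positive. With the block 1 autophagy gene rose, ATG8B (0.28, adjusted p = 0.015), also of the ATG8 family.

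DPE1, SIR and ATG8F passed without any 1 array. BGLU44, BGLU19, HPR, SIRB, CBL, ACLA-1, ACLA-2, APG8H and ATG8C missed the threshold without 1 of several arrays, mostly Col-0 dark 1, Col-0 dark 2 or pil5 dark 3 (adjusted p up to 0.176). The counts fell with them, to 1 for sulfur assimilation without Col-0 dark 1 or Col-0 dark 2, to 0 for ATP citrate lyase without either of these or without pil5 dark 2 or 3, and to 1 for autophagy without either of these or without pil5 dark 3. For beta-glucosidases the count was 0 without Col-0 dark 2 and 1 without Col-0 dark 1 or any of the pil5 dark arrays.

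Of 8 measured nuclear genes of photosynthesis, 2 fell and 0 rose, and with the replicate block 3 fell and 1 rose (PSBY, 0.42, adjusted p = 0.049). RCA (AT2G39730), the activase of Rubisco, read 6.97, 7.07 and 7.27 in pil5 dark, against 7.79, 7.74 and 7.65 in Col-0 dark (-0.62, SE 0.10, adjusted p = 0.0048). LHCB4.1, a minor antenna protein of photosystem II, fell by 1.36 (SE 0.31, adjusted p = 0.020). These are the 2 measured of 11 listed leaf markers, and their mean level was 6.85 to 7.07 in pil5 dark and 7.82 to 8.13 in Col-0 dark. Their part in the other results was not tested. Among plastid-encoded probe sets 0 of 69 were called, and 6 were lower with the block. Of genes of secondary metabolism, HCT, a transferase of lignin synthesis, fell by 1.07 (SE 0.24), and the glycosyltransferases UGT76C1, which acts on cytokinins, and UGT72E1, which acts on lignin precursors, fell by 1.35 (SE 0.28) and 1.26 (SE 0.36). Of 47 measured glycosyltransferases 2 fell and 1 rose, no larger a share than the 11.6% called over all genes. With the block 5 fell and 6 rose, where 11.8% of all genes fell and 10.5% rose. The cytochrome P450 gene CYP71B34 fell by 1.55 (SE 0.33), 1 of 2 to fall among 26, where 5.94% of all genes fell. Of 14 glutathione transferases 3 fell, with GSTU16 the lowest (-1.15, SE 0.25), and 1 rose (2 with the block). RCA passed without any 1 array, while the other 6 genes named in these sentences missed the threshold without Col-0 dark 2 and most also without Col-0 dark 1 or pil5 dark 3 (adjusted p up to 0.177). Without Col-0 dark 1 or Col-0 dark 2 the calls numbered 1 for photosynthesis, 0 for cytochromes P450, 1 for glutathione transferases and 1 or 0 for glycosyltransferases. Without pil5 dark 3 they numbered 1, 0, 1 and 1. Without pil5 dark 2 there was 1 call each for glutathione transferases and glycosyltransferases. Leaving out Col-0 dark 3 raised the calls to 4 for photosynthesis and 6 for glycosyltransferases.

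Further genes with large or well-measured falls had other roles. SKP2A, an F-box protein of cell cycle control, fell by 1.65 (SE 0.34), and NET4B and NET3A, which bind actin, fell by 1.51 (SE 0.30) and 1.31 (SE 0.30). ARPN, plantacyanin, fell by 1.03 (SE 0.21) at a high level. The plastid lipocalin gene CHL fell by 0.73 (SE 0.09, adjusted p = 0.0025). CHL passed without any 1 array, and the others missed the threshold without Col-0 dark 2 and some also without Col-0 dark 1 or a pil5 dark array (adjusted p up to 0.094). The largest fall of all was that of the probe set 251245_at, to which the annotation ties no gene. It read 6.62, 7.50 and 6.28 in pil5 dark, against 11.42, 11.75 and 10.93 in Col-0 dark, 23.7-fold lower in pil5 (-4.57, SE 0.45, adjusted p = 0.00081). Genes without a symbol that fell most were AT5G45310 (-2.78, SE 0.51), AT1G71250 (-2.73, SE 0.43) and AT4G01410 (-2.72, SE 0.37), and these passed without any 1 array.

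Among the transcripts that rose in pil5 were single genes of protein breakdown and folding. CP1 (AT4G36880), a cysteine proteinase, read 13.28, 12.93 and 12.71 in pil5 dark, against 10.45, 10.20 and 10.92 in Col-0 dark, 5.47-fold higher in pil5 (2.45, SE 0.60, adjusted p = 0.025). ALPHA-VPE (AT2G25940), a vacuolar processing enzyme, read 7.40, 7.58 and 6.68 in pil5 dark, against 5.02, 5.57 and 6.41 in Col-0 dark (1.55, SE 0.40, adjusted p = 0.031). The difference of ALPHA-VPE was 2.37, 2.01 and 0.26 in numbers 1, 2 and 3. These were the only 2 of 44 measured proteases and carboxypeptidases to pass, both upward, a smaller share than the 5.62% of all genes that rose. With the block 6 rose and 4 fell, where 10.5% of all genes rose and 11.8% fell. Hsp70-2 (AT5G02490), a cytosolic chaperone, read 10.12, 10.30 and 10.61 in pil5 dark, against 7.85, 7.90 and 9.16 in Col-0 dark (2.04, SE 0.36, adjusted p = 0.0075). On a list made after the values were seen, 3 of 6 chaperonins and Hop proteins rose (4 with the block) and all 6 differences were positive. Hop1 and Hop2, which join Hsp70 and Hsp90, rose by 1.21 (SE 0.19) and 0.73 (SE 0.18), and the plastid chaperonin Cpn60beta2 rose by 0.98 (SE 0.17). Of 12 ubiquitin-specific proteases, listed in the same way, UBP21 (0.75), UBP23 (0.46) and UBP24 (0.42) rose and 0 fell, and 4 rose with the block. Hsp70-2, Hop1, Cpn60beta2 and UBP23 passed without any 1 array. CP1, ALPHA-VPE, Hop2, UBP21 and UBP24 missed the threshold without Col-0 dark 2, and all but UBP24 also without Col-0 dark 1 (adjusted p up to 0.124). Without Col-0 dark 2 the ubiquitin-specific protease count was 1, and no protease passed when number 1 or 2 of either dark group was left out, and 4 passed when Col-0 dark 3 was.

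Nuclear genes of mitochondrial respiration rose in 6 of 15 measured cases and fell in 0, with 14 positive differences and a median of 0.50. This list too was made after the values were seen. Over all genes 5.62% rose and 5.94% fell, and 52.9% of the differences were positive. IDH-V (AT5G03290) and IDH-VI (AT3G09810), subunits of the isocitrate dehydrogenase of the tricarboxylic acid cycle, rose by 0.91 (SE 0.17) and 1.01 (SE 0.23). IDH-V read 10.93, 11.03 and 11.52 in pil5 dark, against 10.18, 10.05 and 10.51 in Col-0 dark, without overlap. SDH2-1 and SDH2-2, the iron-sulfur subunits of succinate dehydrogenase, rose by 0.86 (SE 0.19) and 0.74 (SE 0.16). Cytochrome c, encoded by CYTC-1 and CYTC-2, rose by 0.50 (SE 0.11) and 0.77 (SE 0.21). With the block 8 rose, NDB2 (1.11) among them, and NDB1 (-0.51) fell, where 10.5% of all genes rose and 11.8% fell. NDB2 and NDB1 encode alternative NAD(P)H dehydrogenases. The plastid carrier gene Mfl1, a mitoferrin-like transporter, rose by 0.75 (SE 0.10, adjusted p = 0.0023) and passed without any 1 array. Each of the 6 respiration genes missed the threshold without Col-0 dark 2, and most also without Col-0 dark 1 or a pil5 dark array (adjusted p up to 0.15). Leaving out Col-0 dark 2 gave a count of 0, leaving out Col-0 dark 1 gave 1, and leaving out pil5 dark 1 or 3 gave 3. Among the 23 mitochondrial-encoded probe sets 0 were called (1 was lower with the block), and their median difference was -0.15, -0.16 and -0.77 in numbers 1, 2 and 3.

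Genes for making and processing RNA rose together in part, again on lists made after the values were seen. Over all genes 5.62% rose and 5.94% fell, and with the block 10.5% rose and 11.8% fell. Of 12 subunits of nuclear RNA polymerases 4 rose and 0 fell, and with the block 5 rose and 1 fell (NRPE7, -0.39, adjusted p = 0.014). NRPA1 (AT3G57660) and NRPA2 (AT1G29940), the large subunits of RNA polymerase I, which transcribes ribosomal RNA, rose by 0.58 (SE 0.10) and 0.62 (SE 0.11). NRPA2 read 11.16, 11.35 and 11.47 in pil5 dark, against 10.68, 10.56 and 10.86 in Col-0 dark. The smaller subunits NRPB7 and NRPB12 rose by 0.76 (SE 0.15) and 0.57 (SE 0.12). Of 22 genes for RNA processing and ribosome assembly 9 rose and 1 fell. LSM1B, of messenger RNA decapping, rose by 0.93 (SE 0.14), the transfer RNA 3' processing gene TRZ3 by 0.79 (SE 0.11), and YAO, a nucleolar protein of ribosomal RNA processing, by 0.65 (SE 0.14). The RNA helicase gene RH20 and the splicing gene ATO rose by 0.50 (SE 0.09) and 0.49 (SE 0.10), and the splicing factor gene U2AF35B fell by 0.68 (SE 0.18). GEK1, which clears wrongly charged transfer RNA, rose by 1.06 (SE 0.17). NRPA1, NRPA2, LSM1B, TRZ3, RH20 and GEK1 passed without any 1 array. NRPB7, NRPB12, YAO, ATO and U2AF35B missed the threshold without Col-0 dark 1 or Col-0 dark 2 and some without others (adjusted p up to 0.149). Leaving out Col-0 dark 1 or 2 left 3 RNA processing calls and 2 polymerase calls, and leaving out pil5 dark 3 left 4 RNA processing calls.

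Other genes that rose were of varied function. Of 16 bZIP factors 1 rose and 2 fell, and of 14 glutathione transferases 1 rose and 3 fell. Over all genes 5.62% rose and 5.94% fell. CIL (AT4G25990), a CCT-domain gene related to a factor of plastid protein import, read 8.96, 8.77 and 9.31 in pil5 dark, against 7.36, 7.26 and 7.50 in Col-0 dark (1.64, SE 0.12, adjusted p = 0.00018). The thioredoxin gene ty2 (AT1G43560) rose by 1.41 (SE 0.19, adjusted p = 0.0029). GSTU25 (AT1G17180), a glutathione transferase, read 5.94, 7.0 and 8.31 in pil5 dark, against 4.09, 4.72 and 5.30 in Col-0 dark (2.38, SE 0.54, adjusted p = 0.019). The bZIP factor bZIP44 rose by 1.43 (SE 0.32), the YABBY factor YAB5 by 1.14 (SE 0.25), the calmodulin-binding IQD23 by 1.35 (SE 0.34) and the peptide gene RALFL33 by 1.14 (SE 0.32). Phox4 rose by 1.26 (SE 0.25) and CF9 by 1.06 (SE 0.12). Chromatin remodelling genes went both ways: CHR34 rose by 1.58 (SE 0.40) and CHR23 by 0.60 (SE 0.15), while CHR42 fell by 1.25 (SE 0.27). So did histone H2B, a list made after the values were seen, where HTB1 rose by 0.41 (SE 0.09) and HTB2 (-0.55), HTB4 (-0.39) and HTB11 (-0.38) fell. H2B genes are closely alike in sequence, and whether their probe sets tell them apart was not tested. CIL, ty2 and CF9 passed without any 1 array. The other 9 genes before the histones missed the threshold without Col-0 dark 1 and also without Col-0 dark 2 (adjusted p up to 0.17). Each of the 4 H2B calls was lost without Col-0 dark 2 and without at least 1 other array (adjusted p up to 0.178).

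The largest rise of all was that of the probe set 249438_at, which the annotation ties to no gene. It read 8.12, 8.39 and 8.82 in pil5 dark, against 4.05, 5.17 and 6.70 in Col-0 dark (3.14, SE 0.72, adjusted p = 0.020). Among genes without a symbol, AT3G10930 (2.89, SE 0.44), AT4G20860 (2.50, SE 0.57) and AT5G56350 (2.19, SE 0.43) rose most. AT3G10930 passed without any 1 array, and the other 3 missed the threshold without Col-0 dark 2, and 249438_at and AT4G20860 also when Col-0 dark 1 or pil5 dark 2 or 3 was left out (adjusted p up to 0.084).

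**Figure D3:**
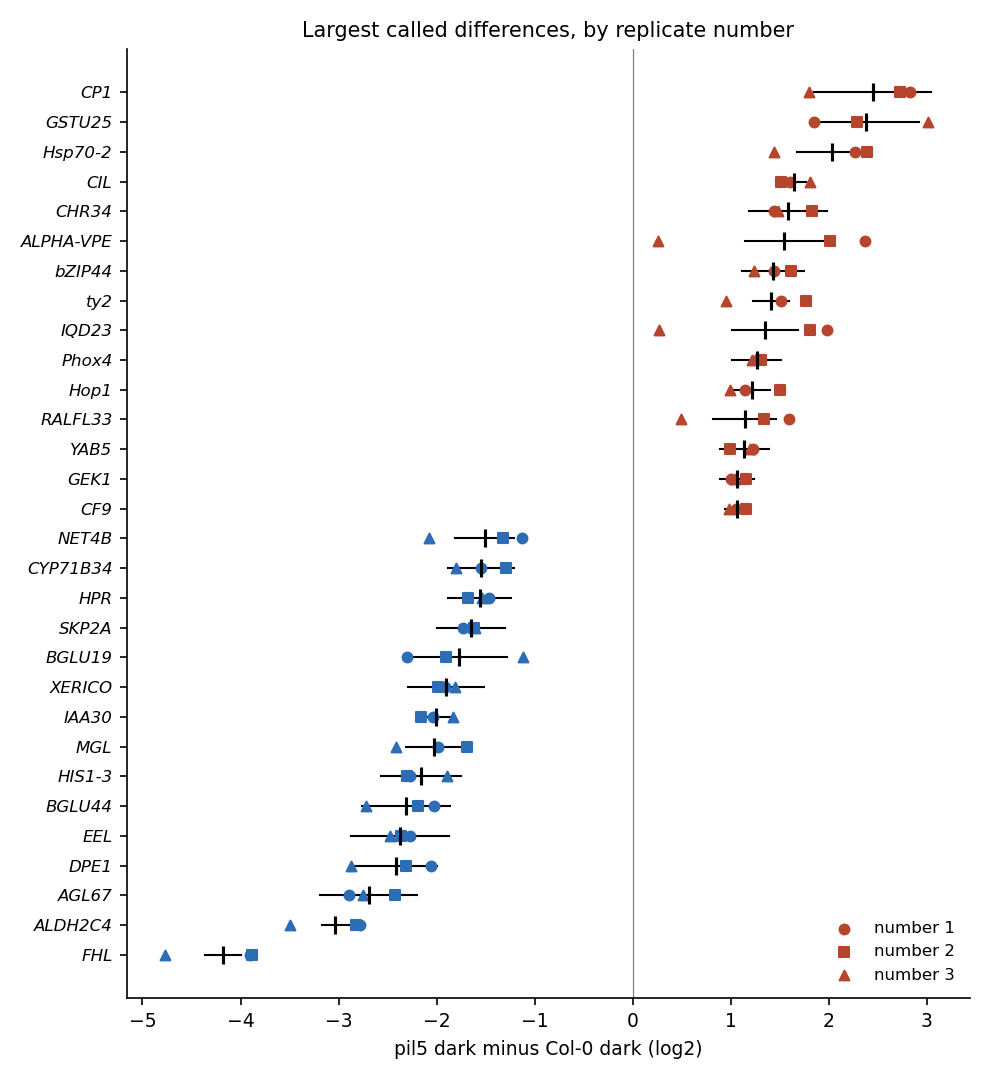
Differences between pil5 dark and Col-0 dark (log2, horizontal) of the 15 highest and 15 lowest called genes with a symbol. Marker shapes give the difference within each replicate number, black ticks the fitted difference and black lines its SE. All 3 numbers have the same sign for each gene, by the rule that chose them, and ALPHA-VPE and IQD23 lie close to 0 in number 3.

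Genes of cell growth had 0 calls without the block, where 11.6% of all genes were called. With the block 10.5% of all genes rose and 11.8% fell. Of 18 expansins, which loosen cell walls, 0 passed (1 rose with the block), and their median was 0.04. EXPA8 had the highest value, 1.3, but did not pass without the block. Of 10 xyloglucan endotransglucosylase genes 0 passed (1 fell with the block), with XTH16 at 1.05 and XTH33 at -0.49. Of 9 tubulins and actins 0 passed (1 fell with the block, TUB6, at -1.16). Without 1 of the dark arrays, at most 1 gene of these 3 groups passed.

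**Figure D4:**
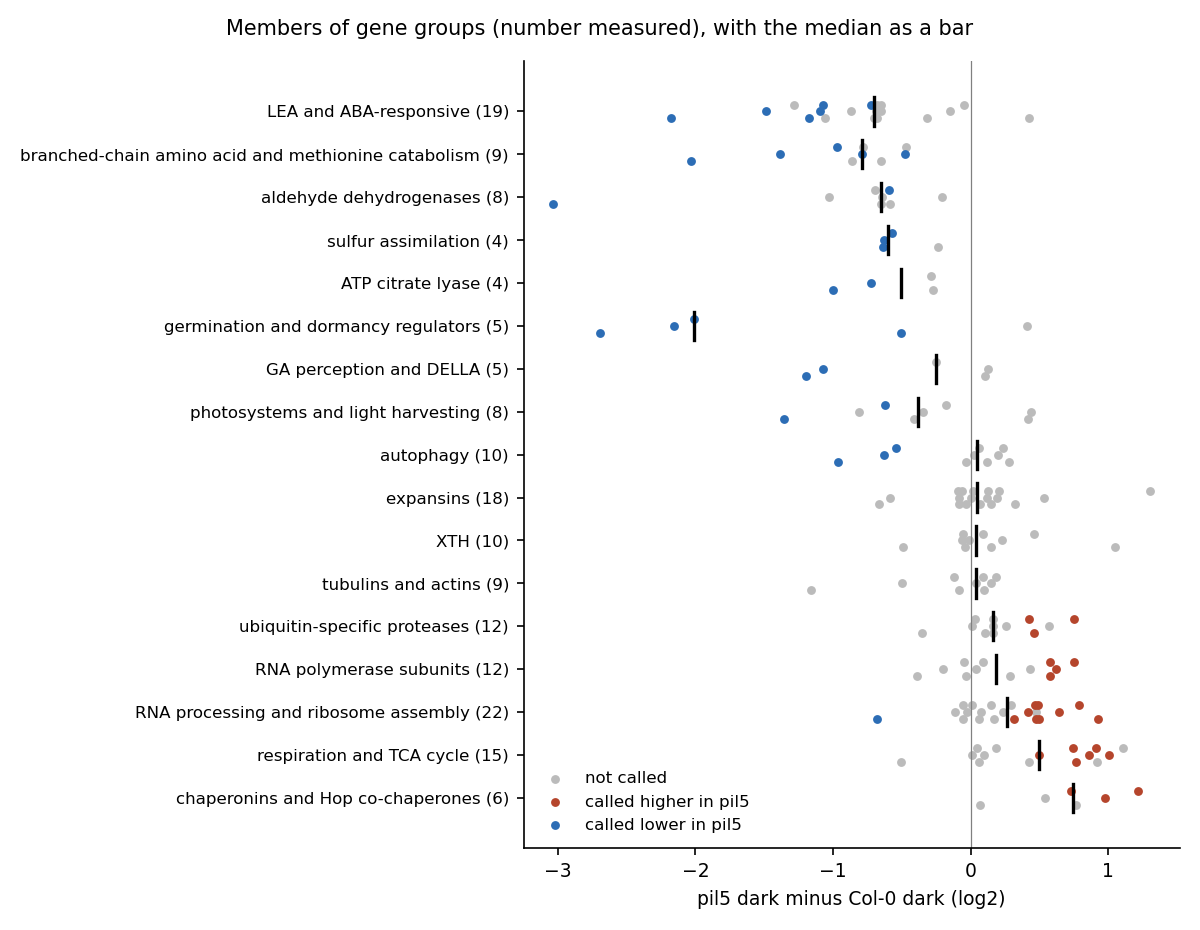
Differences between pil5 dark and Col-0 dark (log2, horizontal) of the measured members of 17 gene groups, 1 point per gene, with the group median as a black bar and the number measured in brackets. Red and blue points passed the test. The medians of the LEA, catabolism and aldehyde dehydrogenase genes lie to the left of 0 and those of respiration and chaperonin genes to the right. COR47 (LEA) and NDB1 (respiration) lie on the other side of 0 from their groups. The medians of expansins, of XTH genes and of tubulins and actins lie near 0, with EXPA8, XTH16 and TUB6 further out.

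The arrays after red share no array with those above and show the genotype difference in other seeds. There, 44 probe sets were called (0.193%), and 1880 with the replicate block (8.27%). Leaving out Col-0 red 1, 2 or 3 gave counts of 3, 9 and 112 in place of 44, and leaving out pil5 red 2 or 3 gave 5 and 28. Dark arrays enter this test through the shared estimate of the spread, and leaving out Col-0 dark 1 or 2 gave 16 and 29, and pil5 dark 2 or 3 gave 17 and 77. Of the 1384 probe sets higher in pil5 in the dark, 616 had the same sign after red and 6 were also called higher, with a median of -0.03. Of the 1366 lower ones, 464 had the same sign and 4 were also called lower, with a median of 0.10. Over all probe sets 48.1% had the same sign in both. With the replicate block under both lights, 331 probe sets were higher and 254 lower in pil5 both times, while 118 that were higher and 87 that were lower in the dark were called with the opposite sign after red. The difference of the genotype difference between the lights, tested as an interaction, passed for 1443 probe sets (6.34%), and with the block for 3973 (17.5%). Among those called in the dark it passed for 576 higher and 599 lower probe sets. The interaction holds the same dark difference by which these probe sets were called, so these counts are not separate support for the calls. Leaving out Col-0 red 1 gave an interaction count of 68, Col-0 dark 2 gave 76, Col-0 dark 1 gave 197 and pil5 dark 1 gave 325. It lay between 599 and 898 when pil5 dark 2 or 3, pil5 red 2 or Col-0 red 2 or 3 was left out.

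The replicate numbers did not give the same picture after red. The median difference after red of the probe sets higher in the dark was 0.03, 0.08 and -0.20 in numbers 1, 2 and 3, and that of the lower ones was -0.05, 0.00 and 0.36. Number 3 holds pil5 red 3, the array that stood apart. CP1 read 13.45, 13.07 and 10.50 in pil5 red, against 13.10, 12.95 and 12.73 in Col-0 red. FHL read 5.14, 5.25 and 4.94 in pil5 red, against 5.21, 5.04 and 5.06 in Col-0 red, so that its genotype difference was 0.00 after red, and pil5 red 3 did not stand apart for it. GID1A read 9.23, 9.64 and 9.63 in pil5 red, against 8.76, 8.87 and 8.75 in Col-0 red (0.71, adjusted p = 0.10, and 0.0065 with the block), the opposite sign to the dark.

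Probe sets that kept a 2-fold genotype difference after red were mostly those higher in pil5. Of the 286 that were higher at least 2-fold in the dark, 45 were also at least 2-fold higher after red (15.7%), against 2 of the 419 that were lower (0.477%). The share of all probe sets with such a difference after red was not counted, so these shares have no background beside them. By number, 72, 70 and 11 of the 286 and 4, 2 and 2 of the 419 were at least 2-fold different in the same direction after red. Of the 45, 4 were called after red (31 with the block), and 11 were at least 2-fold higher in all 3 numbers. With a symbol, the 45 included IQD23, GSTU25, CHR34 and ALPHA-VPE. After red, GSTU25 (adjusted p = 0.26, and 0.071 with the block) and CHR34 (0.19, and 0.068) passed neither fit. ALPHA-VPE passed with the block only (0.12, and 0.037). In number 3 the differences of GSTU25, CHR34 and ALPHA-VPE after red were 0.45, -0.08 and 0.55. IQD23 (AT5G62070) read 7.41, 7.28 and 7.44 in pil5 red, against 5.38, 5.23 and 6.33 in Col-0 red (1.73, adjusted p = 0.073, and 0.0092 with the block). In pil5 dark it had read 7.51, 7.34 and 6.95, against 5.53, 5.53 and 6.68 in Col-0 dark. AT3G10930 had a difference of 2.40 after red (adjusted p = 0.062, and 0.0024 with the block), near its 2.89 in the dark.

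The test without the block was passed under both lights, in the same direction, by 10 probe sets, 6 of them with a locus (adjusted p after red between 0.012 and 0.044). AT5G42720 had a difference of 1.49 (SE 0.23) in the dark and 1.88 after red, AT5G17760 had 1.37 (SE 0.25) and 1.67, AT1G10050 had 1.33 (SE 0.26) and 1.63, and AT3G17770 had 0.33 (SE 0.08) and 0.62. AT4G33960 had -0.85 (SE 0.16) in the dark and -1.41 after red, and AT5G42070 had -0.34 (SE 0.10) and -0.79. AT5G42720 read 5.81, 6.34 and 6.39 in pil5 dark, against 4.72, 4.52 and 4.83 in Col-0 dark, and the red groups did not overlap either, at 6.18 to 6.83 in pil5 red and 4.42 to 5.10 in Col-0 red. Of 2 probe sets that passed in opposite directions, both with no gene tied to them, 260300_at had the larger difference, 2.10 in the dark (adjusted p = 0.00020) and -1.13 after red (adjusted p = 0.030). In the dark, AT5G42720, AT5G17760, AT4G33960 and 260300_at passed without any 1 array, and AT1G10050, AT3G17770 and AT5G42070 missed the threshold without Col-0 dark 1 or Col-0 dark 2 (adjusted p up to 0.107).

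**Figure D5:**
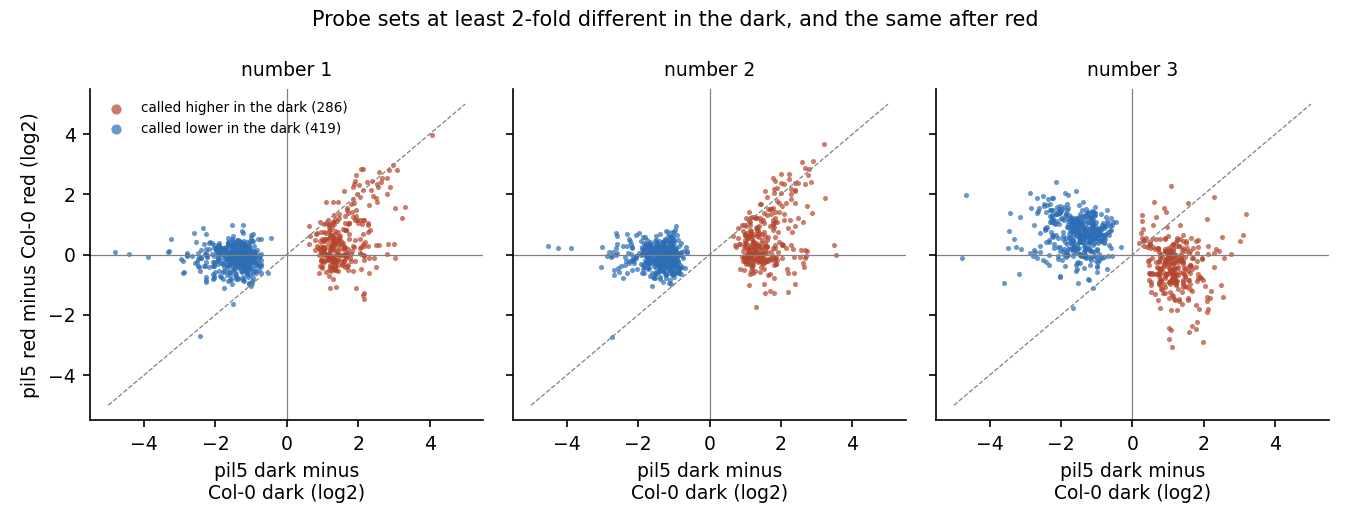
Difference between pil5 red and Col-0 red (log2, vertical) against that between pil5 dark and Col-0 dark (log2, horizontal) within replicate numbers 1, 2 and 3, for the 286 higher and 419 lower probe sets with at least a 2-fold called difference in the dark. The dashed line marks equal differences. In numbers 1 and 2 most points lie near 0 on the vertical axis and some of the higher ones near the dashed line, while in number 3 most lower ones lie above 0 and most higher ones below it.

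Genes next to PIL5 were read because the labels give an insertion line by name. Of the 5 measured genes on each side by locus number, AT2G20230 fell by 0.67 (SE 0.14, adjusted p = 0.015) and AT2G20270 rose by 0.74 (SE 0.20, adjusted p = 0.036), and the other 8 did not pass. Over all genes 11.6% were called, and over the probe sets of chromosome 2 10.8% were. Whether the insertion acts on its neighbours was not tested. AT2G20230 read 9.72, 9.81 and 9.32 in pil5 dark, against 10.32, 10.35 and 10.19 in Col-0 dark. After red it had a difference of 0.36, the opposite sign. Both calls were lost without Col-0 dark 1 or Col-0 dark 2, and that of AT2G20270 also without other arrays (adjusted p up to 0.15).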

How the data were processed

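RNA of 12 imbibed seed samples was hybridised as biotin-labelled cRNA to Affymetrix arrays, 3 per group. The values used are the deposited log2 levels of 22810 probe sets. MAS5 5.0 and RMA are both listed, per the submitters' processing notes, without the step each made, and the log2 values were not scaled again. Groups came from the titles. The 64 control probe sets were set aside. limma 3.58.1 (R 4.3.3) was fitted to all 12 arrays with 1 mean per group, so that the spread is shared, and p-values were adjusted by Benjamini-Hochberg over 22746 probe sets with a threshold of 0.05. The number of arrays limits the precision, and signal depth has no count behind it.

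Same-numbered arrays deviated together from their group means (r between 0.17 and 0.71 over 18 pairs, against -0.68 to 0.41 over 36 pairs of unlike number). The calls, SEs and adjusted p-values come from the fit that leaves this pairing out, unless the block is named. The same holds for calls missed or lost without 1 array. The fit with the number as a block is given beside results whose calls or counts it changes.

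Of the probe sets, 13513 are tied to 1 gene, 503 to several and 8730 to none in the platform annotation used here, and 1580 have a symbol. Names were updated through RefSeq (TAIR10.1), to which 13436 probe sets matched, and 13350 genes have a probe set. Levels of different probe sets were compared only to describe them as bright or dim and to form the level classes.

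Genes were named as the 15 highest and 15 lowest called genes with a symbol that had 1 sign in all 3 numbers, the genes of fixed lists, and the leading genes without a symbol. The gene groups and lists were chosen with earlier results of these data known, and 14 lists were made after the values were seen, so their counts are descriptions. Alternatives were the block, the 6 dark arrays alone, quantile normalization, median centring, filters on dim probe sets, a trended robust fit, array weights, 1 probe set per gene, and leaving out each array. The fit was tested on simulated data in which the arrays varied independently, with no shared effect of the replicate number. That test cannot show how the pairing of the arrays affects the calls. No promoter sequence was used here.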

Additional observations from a re-analysis of the deposited data

Results flagged for a closer look

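The genotype difference in the dark was set against that after red by the interaction test in limma, which passed for 1443 probe sets. The values below are the difference in the dark minus the difference after red, on the log2 scale, for named genes and probe sets that passed it, and no cause was tested. Array pil5 red 3, which stood apart, enters each of them. So does the difference in the dark, by which many of these genes were called, so the values are not separate support for those calls.

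For light and hormone genes the value was -4.18 for FHL, -1.91 for GID1A, -1.20 for GID1C, -2.89 for XERICO and 0.95 for ALC. Among embryo regulators it was -3.30 for HIS1-3, -1.83 for IAA30 and -0.93 for EIN3. LEA genes had -2.01 for LEA, -2.69 for AT2G42560, -1.96 for AT3G17520, -1.81 for AT4G21020 and -1.33 for AT5G44310. In these genes, except ALC, the difference in the dark was the more negative one.

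Enzymes of metabolism had -3.15 for ALDH2C4, -1.09 for ALDH7B4, -2.28 for MGL, -1.48 for MCCA, -0.95 for ETFBETA, -0.63 for ETFQO, -0.74 for IVD and -0.65 for SIRB. HCT had -1.40, GSTU16 -1.72, UGT76C1 -1.73 and UGT72E1 -2.0. The autophagy genes had -1.34 for ATG8F, -0.94 for APG8H and -0.99 for ATG8C, and NET3A and SKP2A had -1.68 and -2.01.

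Positive values were found for Hop1 (1.29), Cpn60beta2 (1.23), CIL (1.86), ty2 (1.56), CF9 (1.0), Mfl1 (0.91), SDH2-2 (1.02) and UBP23 (0.59). The RNA machinery had 0.61 for NRPA1, 0.70 for NRPA2, 0.63 for NRPB12, 1.03 for LSM1B, 0.80 for TRZ3 and 0.84 for YAO. The cell wall genes EXPA8 and XTH16, which did not pass in the dark, had 2.52 and 2.39. Histone H2B genes had 0.59 for HTB1, -1.17 for HTB2, -0.54 for HTB4 and -0.59 for HTB11.

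Without a symbol, 251245_at had -5.33, 260300_at 3.23, AT5G45310 -3.23, AT1G71250 -2.37 and AT4G01410 -2.57. AT2G20230, a neighbour of PIL5, had -1.03.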

How the results depend on the processing

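The count of 2750 called probe sets was 5406 with the replicate block, 5624 in the 6 dark arrays with the replicate block, 7008 with array weights, 1555 with 1 probe set per gene, and 769 to 3965 without 1 array. The fit with 1 probe set per gene tested 13350 genes in place of 22746 probe sets, so its count has a smaller total. Leaving out all arrays of number 3, an alternative chosen after seeing the data, gave 6299, and 8215 with the replicate block. The blocked count ranged from 2935 to 7377 without 1 array. Higher probe sets numbered 2637 and lower ones 2769 with the replicate block, and 2708 and 2916 in the dark arrays alone with it. The counts at 2-fold and 4-fold stayed within 1.5 times the reported values with the replicate block and in the 6 dark arrays with and without it. So they did after quantile normalization, after median centring and without the dimmest 25% of probe sets. They were not counted without single arrays or under the other alternatives. After red, the count of 44 was 1880 with the replicate block, 72 after median centring and 3 to 112 without 1 array. The interaction count of 1443 was 3973 with the replicate block and 68 to 2104 without 1 array. Of 133 genes and probe sets followed, 108 were called. Of these 0 lost the call with the replicate block, 0 changed sign under any alternative, 68 lost the call without at least 1 array, 68 of them without Col-0 dark 2, 17 lost it in the 6 dark arrays alone, 4 after median centring and 2 in the trended robust fit. Leaving out Col-0 dark 1 lost 59 calls and leaving out pil5 dark 3 lost 42. With the block, fewer were lost: 24 without Col-0 dark 1, 24 without Col-0 dark 2 and 17 without pil5 dark 3. Among uncalled genes, the difference of GID1B was -0.031 with array weights, and -0.13 (without pil5 dark 3) to 0.248 without 1 array, against 0.11. That of COR47 was -0.047 (without pil5 dark 1) to 0.847 without 1 array, against 0.42. The cause was not tested. The planned promoter motif alternatives were not run, as no promoter table was used here.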
